A study of Homo sapiens with 54 samples.

Results

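The genes described here are 41 interferon-stimulated genes, listed by name. The list was chosen with earlier results of these data known. All 41 were among the 25435 genes of the expression table, and all 41 were among the 18011 genes that reached a TPM of at least 1 in at least 3 of the libraries used. RNA had been sequenced from 6 lines of high-grade serous ovarian cancer, which form 3 pairs that each came from the same patient. In each pair the first line is labelled platinum sensitive and the other platinum resistant, namely PEA1 and PEA2, PEO1 and PEO4, and PEO14 and PEO23. Each line was sampled untreated, after 8 h and after 24 h in 80 µM carboplatin, a drug whose platinum adducts and crosslinks damage DNA, with 3 replicates per group, each from a different day of culture work according to the series text. No genotype, transgene or other active agent is given for any group. The cultures called untreated here are labelled 0 h. By the series text, the controls instead received the drug's solvent and were collected at the 24 h point. Whether treated and untreated cultures differed in solvent or in culture time is therefore not known. Every PEA1 culture was labelled with a later passage than any PEA2 culture (passage 23 to 27). PEO1 was likewise later than PEO4 at each time, at passage 9 to 11 against 6 to 8 untreated and 12 to 14 against 9 to 11 treated, so that passage and resistance cannot be told apart in these pairs. Treated cultures were at later passages than untreated ones in PEA1, PEA2, PEO1 and PEO4, where passage and treatment cannot be told apart, while the ranges overlapped in PEO14 (20 to 22 untreated, 21 to 25 treated) and PEO23 (20 to 21 and 20 to 22).

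Interferons are secreted proteins that cells release on sensing viral or displaced nucleic acid. Type I and type III interferons act through JAK kinases on a complex with STAT2 and IRF9 that binds a GAAA repeat, the interferon-stimulated response element, upstream of the genes it turns on. The products sense RNA, block viral entry and translation, or feed back on the pathway, and tumour cells can express them without infection. In ovarian cancer they have been linked with both damaged DNA and drug response.

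Promoters from 250 bases before to 50 bases after a transcription start were matched in RefSeq (build GRCh38.p14) for 32 of the 41 genes. The response element was searched as GAAANNGAAA on either strand, and it was found in 23 of the 32 genes (71.88%), against 1172 of 27273 other genes (4.297%) and 3.574% of all 35116 promoters of the same length. The STAT site TTCNNNGAA was found in 10 of the 32 (31.25%), against 9.35% of the other genes. The pair of motifs can overlap. The 9 genes without the GAAA match in this window were CMPK2, DDX58, HERC6, IFI35, IRF9, OAS1, SAMD9L, STAT2 and XAF1. The stretches below belong to members on which the results turn, IFI27 and OAS3 as genes higher in every resistant line at every time compared, BST2 and ISG15 as genes high in PEO4 and PEO23, and IFI44 and IFIT1 as genes whose level moved with carboplatin in at least 3 lines. All lie upstream of the start, read 5′ to 3′ on the gene's strand, and capitals mark the matches. IFI27 is at chr14:94110608-94110670 on the plus strand, OAS3 at chr12:112938311-112938473 on the plus strand, BST2 at chr19:17405725-17405780 on the minus strand, ISG15 at chr1:1013364-1013419 on the plus strand, IFIT1 at chr10:89392487-89392549 on the plus strand and IFI44 at chr1:78649751-78649788 on the plus strand.
IFI27: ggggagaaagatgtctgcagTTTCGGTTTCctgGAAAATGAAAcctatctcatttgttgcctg
OAS3: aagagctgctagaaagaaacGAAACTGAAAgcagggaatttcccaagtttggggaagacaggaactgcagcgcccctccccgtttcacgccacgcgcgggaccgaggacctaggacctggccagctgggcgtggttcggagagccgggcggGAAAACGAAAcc
BST2: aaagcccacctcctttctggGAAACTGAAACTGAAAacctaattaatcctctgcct
ISG15: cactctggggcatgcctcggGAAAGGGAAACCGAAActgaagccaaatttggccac
IFIT1: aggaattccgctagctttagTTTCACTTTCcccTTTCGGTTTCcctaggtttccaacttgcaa
IFI44: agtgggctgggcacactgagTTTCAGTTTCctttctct
IFI27, OAS3 and IFIT1 each carry 2 separate matches here, BST2 and ISG15 carry 2 that overlap, and IFI44 carries 1.

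Libraries differed in how many genes they listed above 0. The 42 libraries with at least 12000 genes above 0 were used (12875 to 17131 genes), and 12 with 2678 to 11752 were set aside. This left no untreated PEO23 library, 1 library each for untreated PEA1 and for PEO4 and PEO14 at 24 h, 2 for each of the 8 h groups of PEA2, PEO1 and PEO4, and 3 in the other 11 groups. A group with 1 library is assumed to vary like the others. RMRP and RPPH1, 2 abundant noncoding RNAs, made up 7.14% to 45.6% of each library's TPM, most in treated PEO libraries, and values were therefore rescaled between libraries. The 11 markers of ovarian carcinoma epithelium summed to 608 to 12013 rescaled TPM and were lowest in PEA1, where CLDN4 had a median of 0 and EPCAM of 4.89 while PAX8 had 37.6. Of 13 leukocyte markers CD3E, CD3D, MS4A1, FCGR3A and TYROBP were at 0 in all 42 libraries. The 4 markers of plasmacytoid dendritic cells, a main source of interferon in blood, summed to 0 to 37.2, mostly from IL3RA, and CLEC4C was at 0 in 40 of 42.

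The summed level of the 41 genes differed between lines. It was lowest in PEA1, at 192 to 253 rescaled TPM (median 214, n = 7 libraries). PEA2 followed at 434 to 772 (median 625, n = 8) and PEO1 at 335 to 697 (median 564, n = 8), and these ranges overlap. PEO14 stood at 966 to 2221 (median 1450, n = 7), PEO23 at 1708 to 4147 (median 2538, n = 6) and PEO4 at 3612 to 9464 (median 6088, n = 6). PEA1 did not overlap with any other line, whereas PEO14 overlapped with PEO23 and PEO23 with PEO4. IFITM3, a membrane protein that hinders viral fusion, was the most abundant member in 33 of the 42 libraries. In PEO14 it alone stood at 520 to 1510, so the place of PEO14 in this order rests largely on 1 gene. The mean of log2(rescaled TPM + 1) over the 41 genes was 2.20 to 2.68 in PEO14. It was 2.55 to 3.32 in PEA2 and 2.30 to 3.17 in PEO1. Members above 1 rescaled TPM numbered 26 to 30 in a PEO14 library, 31 to 37 in PEA2 and 29 to 34 in PEO1. In PEO4 IFI27 led in 4 of 6 libraries. Between 24 and 28 members exceeded 1 rescaled TPM in a PEA1 library, against 37 to 41 in a PEO4 library. DHX58, RSAD2, CMPK2, IFITM1, EPSTI1 and TRIM22 were listed at 0 in all 7 PEA1 libraries, EPSTI1 in all 8 PEA2 libraries, and MX2 and EPSTI1 in all 8 PEO1 libraries. In cultures of this kind, more expressing cells and more RNA per cell cannot be told apart.

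**Figure D1:**
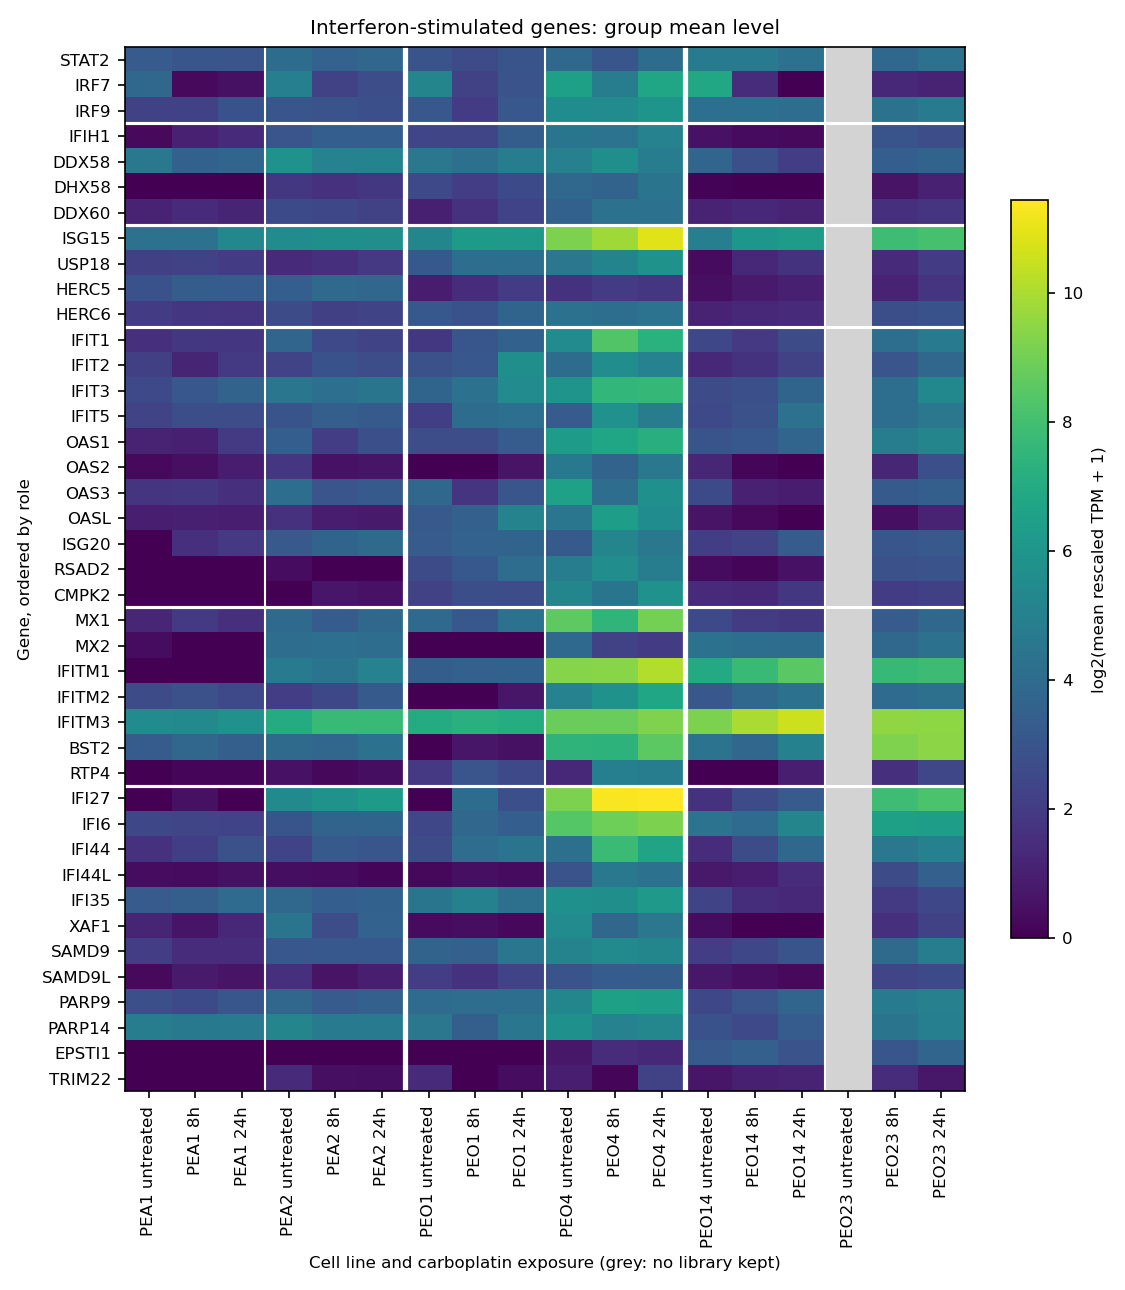
Heat map of the mean level of each of the 41 genes (rows, ordered by role) in each group of libraries (columns), as log2 of the mean rescaled TPM + 1, with grey for untreated PEO23, where no library was used. PEO4 has the brightest columns and PEA1 the darkest, and IFITM3 is bright in every line.

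The resistant line was compared with its sensitive partner at each time by limma on log2(rescaled TPM + 1), with p-values adjusted over the 18011 genes by the Benjamini-Hochberg method, and a gene is called higher or lower at an adjusted p under 0.05. Log2 differences on this scale understate changes of weakly expressed genes, and where the sensitive group is listed at 0 they depend on the added 1 and are neither a fold nor a bound. Overlap between groups is described below mostly for genes called in the same libraries. Groups held 1 to 3 libraries, and the share of all genes without overlap was not counted. Lack of overlap therefore adds no support to a call. In all 3 pairs far more members were higher in the resistant line than lower. In PEO4 33 of 41 were called higher than in PEO1 without drug, 33 at 8 h and 25 at 24 h, where the shares of all genes called higher were 15.4%, 4.67% and 11.9%. In PEA2 13, 14 and 13 were called higher than in PEA1, against 6.32%, 8.98% and 10.2% of all genes. In PEO23 21 were called higher than in PEO14 at 8 h and 12 at 24 h, against 6.83% and 2.49%. Only 1 lower call was made among the members, STAT2 in PEO23 at 8 h, where 8.01% of all genes were called lower. In the other comparisons limma called 0 members lower, against 5.25%, 7.18% and 8.54% of all genes in the 3 PEA2 comparisons, 13%, 5.23% and 9.68% in those of PEO4 and 2.68% in PEO23 at 24 h.

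The median member differed by 0.97, 0.72 and 0.71 in PEA2, by 1.84, 2.35 and 2.09 in PEO4 and by 1.24 and 1.21 in PEO23, where the median of all genes tested was 0 in each of the 8 comparisons. Counting called and uncalled members together, 32 to 37 of 41 lay above 0 in PEA2, 38 to 41 in PEO4 and 34 to 35 in PEO23. With unadjusted p-values under 0.05, 19, 21 and 18 members passed in PEA2, 35, 36 and 30 for PEO4, and 25 and 21 for PEO23, in either direction. With all 54 libraries the counts called higher fell to 3, 2 and 3 for PEA2, 13, 12 and 13 for PEO4, and 2 and 8 for PEO23, again with more higher than lower in these 8 comparisons. Untreated PEO23 against PEO14, which only this setting could compare, had more members lower than higher (see Other observations). Shares of all genes called in this setting are not given here, so its small counts cannot be read as an excess. Without rescaling, PEO4 at 8 h had 20 higher and 0 lower, and PEO23 at 8 h had 8 higher and 4 lower while the median of all genes there moved to -0.41. RMRP and RPPH1 took 23.4% to 44.4% of TPM in PEO23 and 16.2% to 22.1% in PEO14 at 8 h, and their part in the result was not tested. Leaving out PEA2 8 h replicate 1 left 8 calls in that comparison, and leaving out replicate 3 left 9. Leukocyte markers, mostly CD68, summed to 52.7 to 129 in untreated PEO4 and 45.0 to 83.7 in untreated PEO1, and to 22.3 to 26.01 and 28.7 to 40.6 at 8 h. The 4 endothelial markers, mostly CDH5, summed to 105.7 to 153 in PEA2 and to at most 0.271 in PEA1, and the part of these markers in the PEA2 and PEO4 results was not tested.

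**Figure D2:**
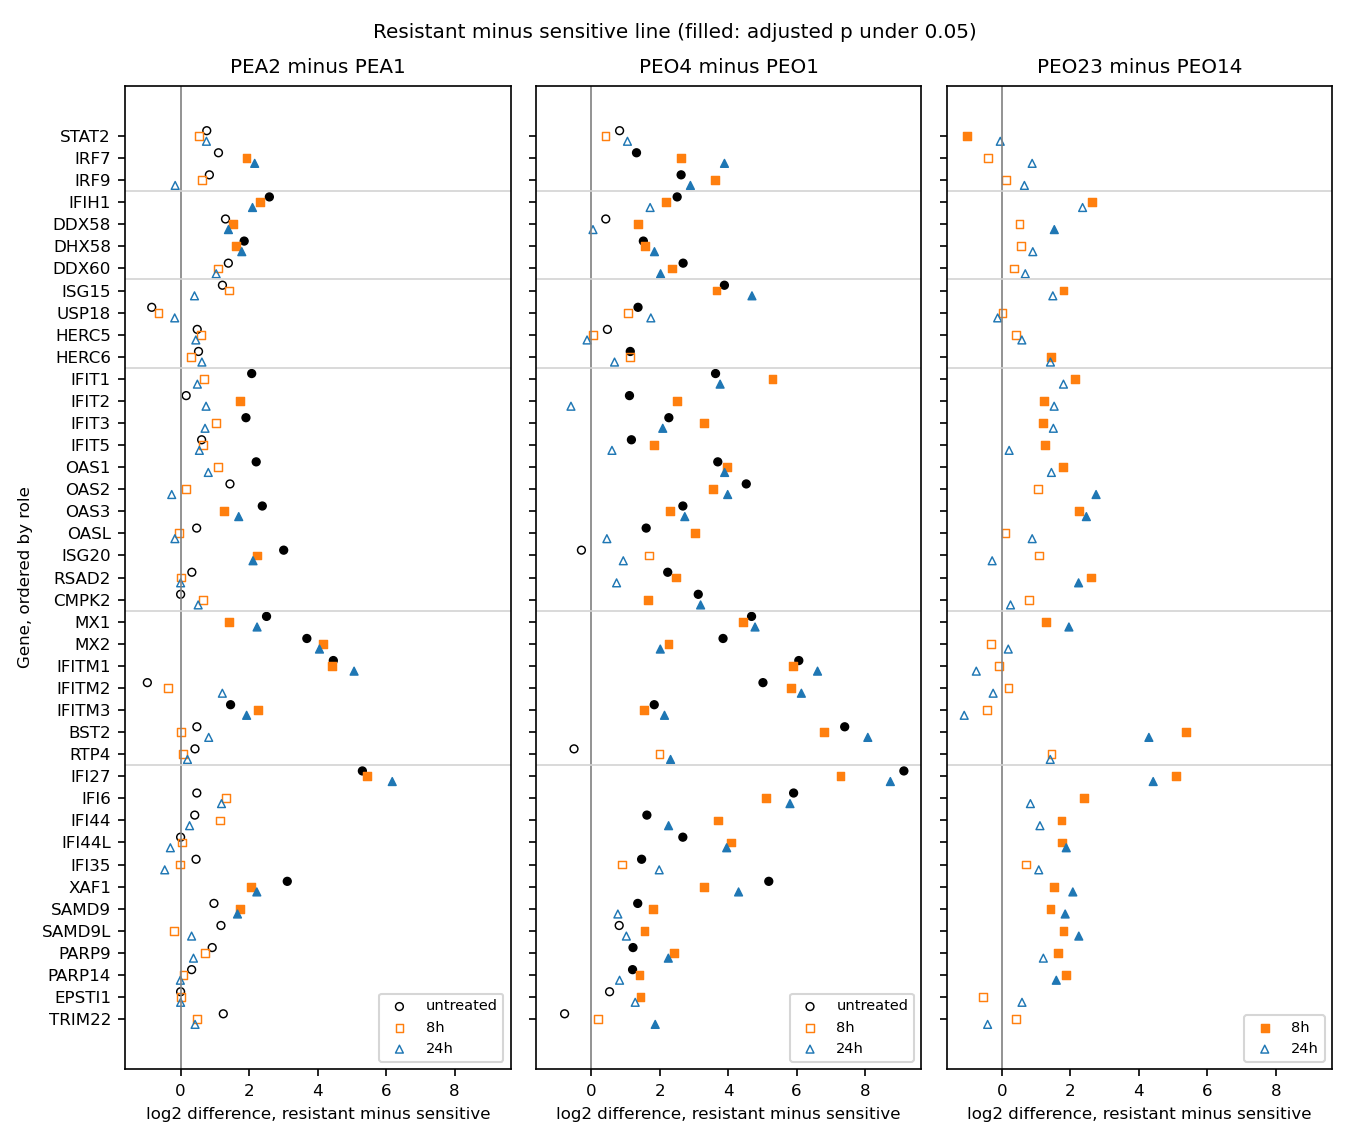
Log2 difference between the resistant and the sensitive line of each pair for the 41 genes in order of role, with circles for untreated, squares for 8 h and triangles for 24 h, and filled symbols for an adjusted p under 0.05. Filled symbols lie to the right of 0 except for STAT2 in PEO23 at 8 h, and the differences in the PEO4 panel reach 9.13 for IFI27.

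Of the 41 genes, 4 were called higher in the resistant line in all 8 comparisons, IFI27, MX1, OAS3 and XAF1, and the same 4 in all 3 pairs at 24 h. At 8 h 7 were called higher in all 3 pairs, these 4 with IFIH1, SAMD9 and IFIT2. A further 19 were called in exactly 2 pairs at 8 h and 9 in exactly 1, of which 7 in PEO4 (OAS2, CMPK2, DDX60, IFITM2, IRF9, OASL and EPSTI1), ISG20 in PEA2 and HERC6 in PEO23. The remaining 6 were called higher in no pair at 8 h (IFI35, RTP4, TRIM22, USP18, HERC5 and STAT2), and HERC5 and STAT2 in none of the 8 comparisons. No gene was called in opposite directions in 2 pairs. Of the 7 shared genes IFI27 kept its call in all 3 pairs at 8 h without rescaling, where 11 of the 21 values passed, and none did with all 54 libraries, where 5 of the 21 values passed.

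Among the GTPases and membrane or entry factors, 4 of 7 were called higher in PEA2 at each time, 6, 6 and 7 in PEO4, and 2 and 2 in PEO23. MX1, a GTPase that traps viral ribonucleoproteins, stood at 1.33 in untreated PEA1, at 3.80, 1.53 and 3.37 at 8 h and at 2.58, 1.02 and 2.34 at 24 h (all values in rescaled TPM). PEA2 had 19.9, 17.8 and 4.94, then 10.4 and 7.69, then 18.8, 10.1 and 10.4, so that no PEA2 library overlapped with PEA1 at any time. MX1 differed by 2.51 (SE 0.57, adjusted p = 0.00241), 1.41 (SE 0.45, adjusted p = 0.0282) and 2.23 (SE 0.40, adjusted p = 8.8e-05). PEO4 carried the highest MX1, with 375, 436 and 343 untreated, 261 and 94.6 at 8 h and 523 at 24 h, where no PEO1 library passed 19.6. PEO23 at 8 h had 8.10, 9.70 and 8.63 and PEO14 had 3.78, 3.36 and 2.15, a difference of 1.28 (SE 0.40, adjusted p = 0.0284) without overlap. Without rescaling the PEA2 call at 8 h did not pass (1.46, adjusted p = 0.169). Nor did the PEO23 call at 8 h (0.53, adjusted p = 0.618). That call did not pass when any of 5 of the 6 libraries was left out (adjusted p = 0.0555 to 0.134), and the PEA2 call at 8 h did not pass without PEA1 replicate 2, PEA2 replicate 1 or PEA2 replicate 3 (adjusted p = 0.144, 0.216 and 0.0845).

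MX2, a related GTPase that acts at the nuclear pore, was at 0.289 in untreated PEA1, listed at 0 in all 6 treated PEA1 libraries and in all 8 PEO1 libraries. In PEA2 it stood at 14.9, 19.0 and 13.4 untreated, 18.6 and 15.2 at 8 h, and 18.6, 14.5 and 14.2 at 24 h (adjusted p = 5.74e-10, 1.12e-13 and 1.07e-14). PEO4 had 10.9, 11.2 and 19.8 untreated, 3.20 and 4.44 at 8 h, and 3.05 at 24 h. MX2 was thus detected in PEO4 but not in PEO1, and in PEA1 only in the untreated library, whereas PEO14 and PEO23 both had it at 11.01 to 21.5. In PEO23 it differed from PEO14 by -0.31 (SE 0.23, adjusted p = 0.442) at 8 h and 0.19 (SE 0.33, adjusted p = 0.881) at 24 h.

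IFITM1, IFITM2 and IFITM3 are neighbouring, near-identical membrane genes whose reads the quantification could split between them, so each value is uncertain. IFITM1 was listed at 0 in all 7 PEA1 libraries and stood at 37.7, 30.5 and 7.75 in untreated PEA2, 19.7 and 20.9 at 8 h, and 34.0, 26.3 and 38.4 at 24 h. PEO1 had IFITM1 at 2.98 to 15.4 over its 8 libraries and PEO4 at 533, 1030 and 401 untreated, 589 and 773 at 8 h and 1105 at 24 h, so that the lines did not overlap. The PEO4 differences were 6.06 (SE 0.44, adjusted p = 4.44e-12), 5.90 (SE 0.54, adjusted p = 3.32e-09) and 6.61 (SE 0.62, adjusted p = 6.13e-09). IFITM2 was listed at 0 in the untreated and 8 h libraries of PEO1 and at 1.12, 0.682 and 0 at 24 h, against 49.5 and 63.9 in PEO4 at 8 h and 107 at 24 h. IFITM3 was high everywhere, and at 8 h it stood at 42.3, 42.5 and 40.9 in PEA1 and at 224 and 186 in PEA2 (difference 2.26, SE 0.27, adjusted p = 1.74e-07). None of the 3 was called in PEO23.

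BST2 encodes tetherin, which holds budding virions at the cell surface. It was listed at 0 in the 3 untreated PEO1 libraries, at 0 and 1.23 at 8 h, and at 0.381, 0.916 and 0 at 24 h. PEO4 had 157, 153 and 199, then 130 and 208, then 373. PEO14 had BST2 at 12.2, 11.8 and 13.6 at 8 h and 31.3 at 24 h, against 717, 341 and 702 and then 1068, 383 and 620 in PEO23. The PEO23 differences were 5.37 (SE 0.37, adjusted p = 7.65e-12) and 4.30 (SE 0.52, adjusted p = 2.32e-06), and groups did not overlap in either pair. PEA1 and PEA2 overlapped, with 9.66, 16.5 and 12.1 against 13.03 and 12.05 at 8 h (difference 0.01, SE 0.41). RTP4, a chaperone of receptors, was called higher once, in PEO4 at 24 h (2.32, SE 0.82, adjusted p = 0.0408).

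The RNA sensors of the RIG-I family and the related DDX60 gave 2, 3 and 3 of 4 higher in PEA2, 3, 4 and 2 for PEO4, and 1 and 1 for PEO23. IFIH1 encodes MDA5, which binds long duplex RNA. At 8 h it stood at 0.838, 0.891 and 1.47 in PEA1 and 6.59 and 12.6 in PEA2 (difference 2.31, SE 0.58, adjusted p = 0.00443), and at 0.382, 0.360 and 0 in PEO14 and 9.27, 5.596 and 5.69 in PEO23 (difference 2.64, SE 0.52, adjusted p = 0.000514). PEO1 had 7.03 and 1.30 and PEO4 25.8 and 13.3 (difference 2.19, SE 0.63, adjusted p = 0.0231). Groups did not overlap in any pair, but the PEO4 call did not pass without PEO1 replicate 2 (adjusted p = 0.351) or PEO4 replicate 1 (adjusted p = 0.151), nor without rescaling (1.58, adjusted p = 0.566), with a pseudocount of 0.1 (adjusted p = 0.174), in the compared groups alone (adjusted p = 0.224) or with quality weights (adjusted p = 0.0824), and the PEA2 call did not pass without PEA2 replicate 3 (adjusted p = 0.12). DHX58, which encodes the regulator LGP2, was listed at 0 in every PEA1 library and above 0 in all 8 PEA2 libraries, up to 3.90, and it was called at all 3 times in PEA2 and PEO4. DDX58, which encodes RIG-I, was called in PEA2 at 8 h (1.53, SE 0.35, adjusted p = 0.002) and 24 h, in PEO4 at 8 h and in PEO23 at 24 h.

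RNA-binding and nucleotide-acting effectors gave 5, 3 and 2 of 11 higher in PEA2, 10, 10 and 6 for PEO4, and 7 and 3 for PEO23. OAS3 makes oligoadenylates that turn on RNase L. At 8 h it stood at 4.05, 1.51 and 1.99 in PEA1 and 7.17 and 6.93 in PEA2 (difference 1.26, SE 0.35, adjusted p = 0.011), and at 2.07 and 2.61 in PEO1 and 19.98 and 11.7 in PEO4 (difference 2.29, SE 0.38, adjusted p = 9.14e-05). PEO14 had 1.42, 1.64 and 0.188 and PEO23 7.31, 8.46 and 9.52 (difference 2.26, SE 0.31, adjusted p = 5.28e-06). OAS3 was higher in every resistant library than in every sensitive library of its pair at 8 h, and the PEA2 call at 8 h did not pass without PEA1 replicate 2, PEA2 replicate 1 or PEA2 replicate 3 (adjusted p = 0.0696, 0.0809 and 0.0782). OAS2, its paralogue, stood at 8.19, 3.66 and 6.16 in PEO23 at 24 h and was listed at 0 in the PEO14 library. The PEO23 calls of OAS2 and OAS3 at 24 h did not pass without rescaling, with quality weights or in the compared groups alone. Without rescaling OAS3 did not pass in PEA2 and PEO4 at 8 h either (adjusted p = 0.104 and 0.0863).

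IFIT proteins bind viral RNA and hinder its translation. IFIT1 stood at 4.89 and 9.81 in PEO1 at 8 h and at 358 and 272 in PEO4 (difference 5.29, SE 0.52, adjusted p = 1.58e-08). IFIT2 at 8 h was 0.435, 1.52 and 1.86 in PEA1 and 6.79 and 5.76 in PEA2 (difference 1.74, SE 0.44, adjusted p = 0.00529), 4.35 and 10.7 in PEO1 and 67.8 and 28.7 in PEO4 (difference 2.51, SE 0.48, adjusted p = 0.000534). PEO14 had IFIT2 at 1.96, 2.04 and 2.55 and PEO23 at 10.1, 7.22 and 3.66 (difference 1.24, SE 0.40, adjusted p = 0.031). None of these groups overlapped. The PEO23 call of IFIT2 did not pass when any of 5 of the 6 libraries was left out (adjusted p = 0.0618 to 0.176). Without rescaling it did not pass either (0.56, adjusted p = 0.511). The PEA2 call did not pass without PEA2 replicate 1, where the difference was 1.63. RSAD2, the radical-SAM enzyme viperin, stood at 9.51, 4.11 and 5.12 in PEO23 at 8 h and at 0.266, 0.180 and 0 in PEO14 (difference 2.59, SE 0.35, adjusted p = 3.46e-06), while in PEA2 it was at 0 in all treated libraries. ISG20, an RNA exonuclease, was called at all 3 times in PEA2, with 2.97, 11.4 and 9.65 untreated where the PEA1 library listed 0, and in no other pair. Its untreated call did not pass without PEA2 replicate 2 (adjusted p = 0.0633) or replicate 3 (adjusted p = 0.0556).

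Of the ISG15 system, 0 of 4 were called in PEA2 at any time, 3, 1 and 1 in PEO4, and 2 and 0 in PEO23. ISG15, a ubiquitin-like modifier, stood at 480, 868 and 359 in untreated PEO4 and at 47.1, 44.3 and 20.2 in untreated PEO1 (difference 3.89, SE 0.51, adjusted p = 7.6e-07). In PEO23 at 8 h it was 336, 89.4 and 288 against 35.1, 58.8 and 95.1 in PEO14, which overlap, with a difference of 1.80 (SE 0.51, adjusted p = 0.015). In PEA2 the differences were 1.22, 1.41 and 0.41 (adjusted p = 0.342, 0.099 and 0.736). HERC5, the ligase that attaches ISG15, was called in none of the 8 comparisons, with differences of -0.12 to 0.60. USP18, which removes ISG15 and dampens receptor signalling, was called once, in untreated PEO4 (1.37, SE 0.47, adjusted p = 0.0299).

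The other interferon-induced members gave 2, 3 and 3 of 12 higher in PEA2, 9, 10 and 7 for PEO4, and 9 and 6 for PEO23. IFI27, a small mitochondrial and nuclear-envelope protein, had the largest difference of all members in 7 of the 8 comparisons, the exception being PEO23 at 8 h. It was listed at 0 in 6 of 7 PEA1 libraries and at 1.32 in PEA1 8 h replicate 2. PEA2 had 69.1, 37.7 and 21.9 untreated, 49.6 and 63.9 at 8 h, and 94.7, 70.5 and 54.9 at 24 h. PEO1 listed it at 0 in all untreated libraries, at 18.03 and 12.8 at 8 h, and at 3.97, 4.24 and 9.35 at 24 h, against 465, 483 and 784, then 2188 and 2902, then 2756 in PEO4. The treated PEO4 differences were 7.28 (SE 0.73, adjusted p = 2.17e-08) and 8.74 (SE 0.85, adjusted p = 1.01e-08). PEO14 had 5.65, 3.97 and 6.25 at 8 h and 8.81 at 24 h, and PEO23 had 241, 105.1 and 365 and then 618, 100 and 147, differences of 5.09 (SE 0.60, adjusted p = 3.7e-07) and 4.42 (SE 0.85, adjusted p = 0.00125). No resistant library overlapped with its sensitive partner at any time compared, and the call passed whichever library was left out. The PEO23 call at 24 h did not pass with a pseudocount of 0.1 or with quality weights. With all 54 libraries the PEA2 call at 8 h did not pass.

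XAF1, a partner of the caspase inhibitor XIAP, was at 0.450, 0.316 and 0.965 in PEA1 and 5.98 and 4.95 in PEA2 at 8 h (difference 2.05, SE 0.44, adjusted p = 0.001). PEO1 had 0 and 0.690 and PEO4 18.2 and 7.51 (difference 3.30, SE 0.48, adjusted p = 1.42e-05), and PEO14 was listed at 0 throughout 8 h and 24 h where PEO23 had 2.34, 0.851 and 2.86 and then 6.39, 3.09 and 1.47. XAF1 did not overlap in any pair. Without rescaling its PEO23 call at 8 h did not pass (0.98, adjusted p = 0.137). SAMD9, an antiviral and growth-restraining protein, stood at 1.76, 1.01 and 2.37 in PEA1 and 6.19 and 9.69 in PEA2 at 8 h, at 13.3 and 7.67 in PEO1 and 67.0 and 21.0 in PEO4, and at 4.27, 6.03 and 3.54 in PEO14 and 15.5, 19.8 and 8.46 in PEO23. Its differences were 1.72 (SE 0.42, adjusted p = 0.00319), 1.80 (SE 0.46, adjusted p = 0.0086) and 1.42 (SE 0.37, adjusted p = 0.00834), again without overlap. These calls did not pass without PEA2 replicate 3 (adjusted p = 0.0962), without PEO1 replicate 2 or PEO4 replicate 1 (adjusted p = 0.12 and 0.223), and without PEO14 replicate 3 (adjusted p = 0.0518). Without rescaling SAMD9 passed in none of the 3 pairs at 8 h (adjusted p = 0.0717, 0.474 and 0.518), and its PEO23 difference was 0.65. Its PEO4 call also did not pass in the compared groups alone (adjusted p = 0.273) or with quality weights (adjusted p = 0.051). SAMD9L, its neighbour in the genome, stood at 5.47, 5.70 and 3.74 in PEO23 at 24 h against 0.242 in the only PEO14 library used. That call did not pass with quality weights, without rescaling or in the compared groups alone. IFI6, a mitochondrial survival protein, was at 233, 549 and 255 in untreated PEO4, 632 and 321 at 8 h and 576 at 24 h, where no PEO1 library passed 17.1, and at 141, 47.2 and 78.2 in PEO23 at 8 h against 19.97, 14.7 and 10.2 in PEO14.

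**Figure D3:**
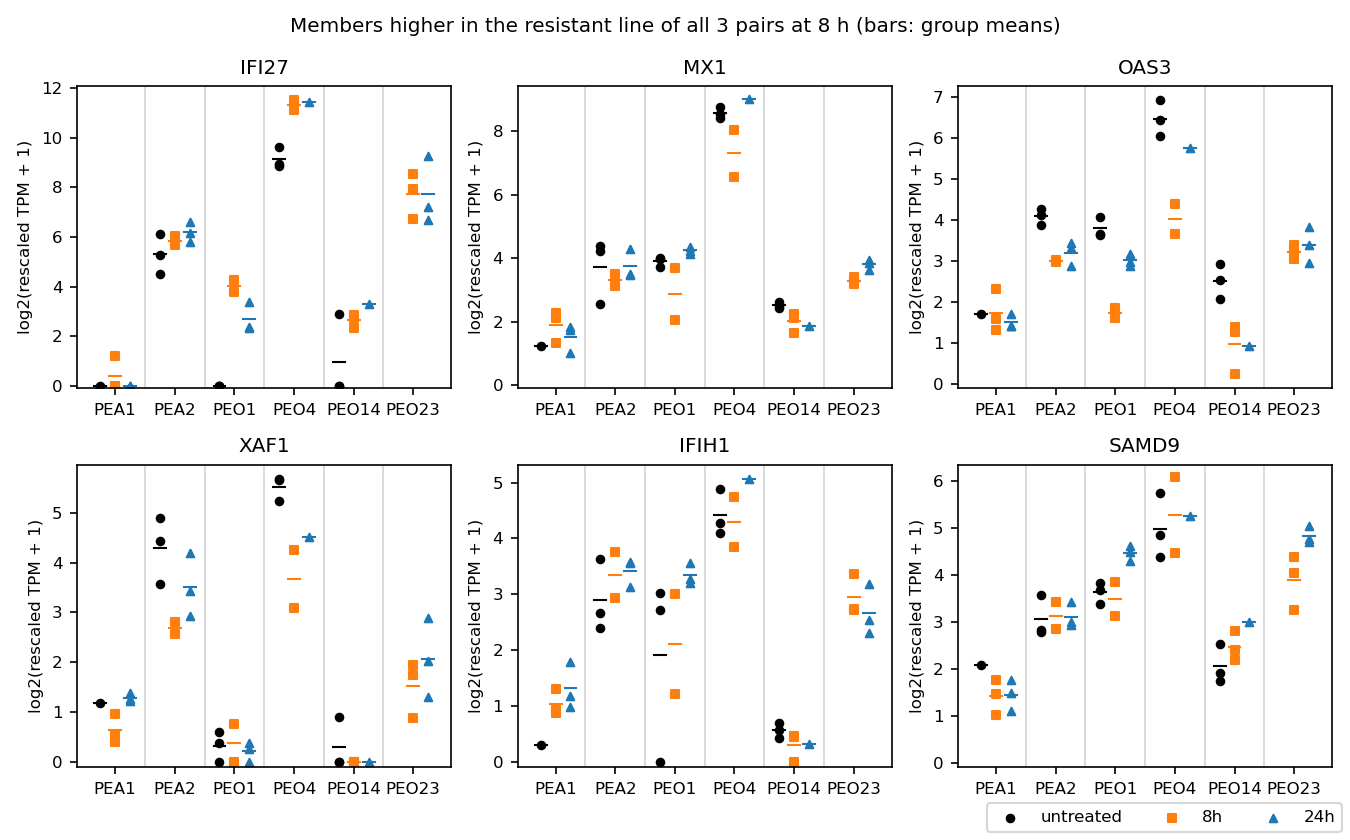
Level of 6 members that were higher in the resistant line of all 3 pairs at 8 h, as log2(rescaled TPM + 1) for each library by line, with circles for untreated, squares for 8 h, triangles for 24 h and bars for group means. The highest values of IFI27, MX1 and OAS3 come from PEO4, and IFI27 is at 0 in 6 of the 7 PEA1 libraries.

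The transcription factors gave 0, 1 and 1 of 3 higher in PEA2, 2 at each time for PEO4, and 0 at both times for PEO23. IRF9, the DNA-binding part of the STAT complex, stood at 49.4 and 40.3 in PEO4 at 8 h and 4.69 and 1.46 in PEO1 (difference 3.61, SE 0.48, adjusted p = 3.3e-06). PEO14 and PEO23 overlapped for IRF9, with 12.4, 16.4 and 22.8 against 21.8, 12.5 and 22.1 (difference 0.12, SE 0.39, adjusted p = 0.946). STAT2 was lower in PEO23 at 8 h, with 15.9, 18.9 and 5.603 against 27.6, 22.6 and 25.98, by -1.01 (SE 0.33, adjusted p = 0.0341), and replicate 3 of PEO23 was the lowest of these libraries.

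Pairs were compared with each other at 8 h by testing the difference of their differences. PEO4 against PEO1 exceeded PEA2 against PEA1 for 14 members and fell short for 1, MX2, where 15.7% of all genes were called in either direction. The largest were BST2 (6.79, SE 0.61, adjusted p = 9.07e-10) and IFITM2 (6.21, SE 0.97, adjusted p = 1.95e-05). PEO23 against PEO14 exceeded PEA2 against PEA1 for 5 members (BST2, RSAD2, SAMD9L, PARP14 and IFI44L) and fell short for 5 (IFITM1, MX2, IFITM3, IRF7 and STAT2), at a share of 13.9% of all genes. PEO4 against PEO1 exceeded PEO23 against PEO14 for 16 members and fell short for 0, at 9.76%, with IFITM1 (5.98, SE 0.69, adjusted p = 4.46e-07) and IRF9 (3.49, SE 0.62, adjusted p = 0.000288) among them. IFI27, OAS3 and XAF1 were called in none of these 3 contrasts. With all 54 libraries 2, 1 and 1 members were called.

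Carboplatin was compared with no drug within each line, except in PEO23. Members moved in both directions and the lines differed in how many. In PEA1 0 members rose and 1 fell at each time (0.6% and 0.788% of all genes called higher, 5.3% and 5.23% lower), and in PEA2 0 rose and 3 fell at 8 h (3.54% and 10.8%) and 1 rose and 4 fell at 24 h (4.75% and 12.5%). In PEO1 4 rose and 4 fell at 8 h (17.5% and 24.5%), and 10 rose and 3 fell at 24 h (15.7% and 22.9%). In PEO4 11 rose and 7 fell at 8 h (21.6% and 32.0%), and 8 rose and 1 fell at 24 h (7.26% and 12.7%). In PEO14 3 rose and 4 fell at 8 h (8.92% and 21.2%), and 5 rose and 3 fell at 24 h (13.5% and 22.7%). The median member moved by 0 and 0.07 in PEA1, -0.18 and -0.07 in PEA2, 0.20 and 0.56 in PEO1, 0.42 and 0.75 in PEO4 and -0.02 and 0.41 in PEO14, while the median of all genes moved by -0.15 and -0.12 in PEO1, -0.23 and -0.10 in PEO4 and -0.16 and -0.27 in PEO14. These splits turn on the scaling. Without rescaling 1 rose and 14 fell in PEO1 at 8 h, 3 rose and 16 fell in PEO4 at 8 h, and 0 rose and 6 fell in PEO14 at each time, while the median of all genes moved by -1.14, -1.12, -0.60 and -1.12. The median share of ribosomal protein genes was 12.3% of TPM without drug and 19.96% at 8 h, RMRP and RPPH1 took 8.80% to 13.9% in untreated PEO1 and 21.1% and 41.2% at 8 h, and their part in the result was not tested.

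IRF7, the factor that amplifies type I interferon production, fell in 9 of the 10 comparisons. It stood at 13.2 in untreated PEA1, at 0, 0.291 and 0.403 at 8 h and at 0.732, 0 and 0.613 at 24 h. PEA2 went from 26.4, 31.0 and 31.9 to 4.86 and 2.64 and then 4.66, 4.40 and 7.22, and PEO1 from 40.4, 34.9 and 30.9 to 3.16 and 4.10 and then 8.78, 3.85 and 6.88. In PEO14 it went from 126, 79.1 and 125 to 1.14, 0.646 and 3.48 and was listed at 0 in the 24 h library. In these lines treated and untreated libraries did not overlap, and IRF7 changed by -3.55 (SE 0.65, adjusted p = 0.000717) in PEA1, -2.73 (SE 0.51, adjusted p = 0.000418) in PEA2, -2.97 (SE 0.51, adjusted p = 3.36e-05) in PEO1 and -5.43 (SE 0.46, adjusted p = 4.27e-10) in PEO14 at 8 h. PEO4 had 90.7, 101.2 and 78.3 untreated, 33.0 and 22.5 at 8 h, and 105.95 at 24 h, so that the change was -1.68 (SE 0.51, adjusted p = 0.00665) at 8 h and 0.24 (SE 0.65, adjusted p = 0.878) at 24 h. The PEO4 call at 8 h did not pass without PEO4 8 h replicate 2 (adjusted p = 0.102), and with a pseudocount of 0.1 it (adjusted p = 0.205), both PEA2 calls (adjusted p = 0.0766 and 0.0945) and the PEO1 call at 24 h (adjusted p = 0.0508) did not pass. Treated PEO23 libraries had IRF7 at 0 to 3.83, near those of treated PEO14. OAS3 fell in 7 comparisons, in both times of PEA2, PEO1 and PEO14 and at 8 h in PEO4, where it went from 86.1, 122 and 65.5 to 19.98 and 11.7 (-2.45, SE 0.35, adjusted p = 1.04e-06), and the 2 PEA2 calls and the PEO1 call at 24 h did not pass when single libraries were left out.

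IFI44, a microtubule-associated protein, rose in 6 comparisons, both times of PEO1, PEO4 and PEO14. In PEO4 it went from 21.7, 9.84 and 21.9 to 263 and 180 at 8 h (3.62, SE 0.56, adjusted p = 3.24e-06) and 100.98 at 24 h. In PEO14 it went from 0.439, 3.66 and 1.04 to 7.40, 4.67 and 3.82 (1.36, SE 0.50, adjusted p = 0.0388) and 13.5, and in PEO1 from 8.09, 2.65 and 4.78 to 13.7 and 18.2 (1.54, SE 0.56, adjusted p = 0.0266) and 20.3, 19.3 and 21.3. None of these treated libraries overlapped with the untreated ones. The 8 h calls of PEO14 and PEO1 did not pass without 1 of 4 and 1 of 3 libraries, respectively, and without rescaling IFI44 passed in PEO4 at 8 h only. IFI27, given above, rose in PEO1 at both times, in PEO4 at 8 h and in PEO14 at both times, and it was called in neither PEA line. The PEO4 call did not pass without PEO4 8 h replicate 2 (adjusted p = 0.0622), with a pseudocount of 0.1 (adjusted p = 0.112) or without rescaling, where the change was 0.51 (adjusted p = 0.58) in place of 2.17. In PEO14 untreated IFI27 was listed at 0 in 2 libraries and at 6.50 in the other. Its call at 8 h did not pass without any 1 of 4 of the 6 libraries (adjusted p = 0.0877 to 0.2) or without rescaling (adjusted p = 0.0699), and its call at 24 h did not pass without either untreated library at 0 (adjusted p = 0.106 and 0.105) or without rescaling (adjusted p = 0.196). IFIT1 rose in PEO4, from 48.8, 23.3 and 63.6 to 358 and 272 (2.87, SE 0.48, adjusted p = 9.59e-06) and 157, and in PEO1, from 1.53, 3.77 and 2.40 to 4.89 and 9.81 and then 10.6, 10.6 and 10.7. In PEA2 it fell at 24 h, from 15.3, 13.2 and 7.96 to 6.32, 3.47 and 2.58 (-1.38, SE 0.43, adjusted p = 0.0239), a call that did not pass without 1 of 4 libraries (adjusted p = 0.0749 to 0.11). The PEO4 call at 24 h, 1.89 (adjusted p = 0.0263), did not pass without PEO4 untreated replicate 2 (adjusted p = 0.0853) or under other settings, among them no rescaling (adjusted p = 0.134) and the compared groups only (adjusted p = 0.357). The PEO1 call at 8 h did not pass without any 1 of 3 of the 5 libraries (adjusted p = 0.0703 to 0.385), and without rescaling that value was -0.17 (adjusted p = 0.838) in place of 1.21 (adjusted p = 0.042).

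Other members that changed included IFIT5, which rose in PEO1 and PEO4 at both times and in PEO14 at 24 h by 1.58 to 2.57, and RTP4, which rose in PEO4 by 4.07 and 3.96 from 4.58, 0 and 0 to 22.2 and 37.3 and then 26.5. OASL, an OAS-like protein without synthetase activity, rose in PEO1 at 24 h from 17.2, 3.26 and 3.95 to 33.5, 33.1 and 34.9 (2.26, SE 0.53, adjusted p = 0.00112). XAF1 fell at 8 h in PEA2 (-1.61, SE 0.44, adjusted p = 0.0133) and PEO4 (-1.84, SE 0.44, adjusted p = 0.000804). Of the ISG15 system 0 of 4 genes were called in any of the 10 comparisons, and of the RNA sensors IFIH1 and DDX60 rose in PEO1 at 24 h and DDX58 fell in PEO14 at both times.

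**Figure D4:**
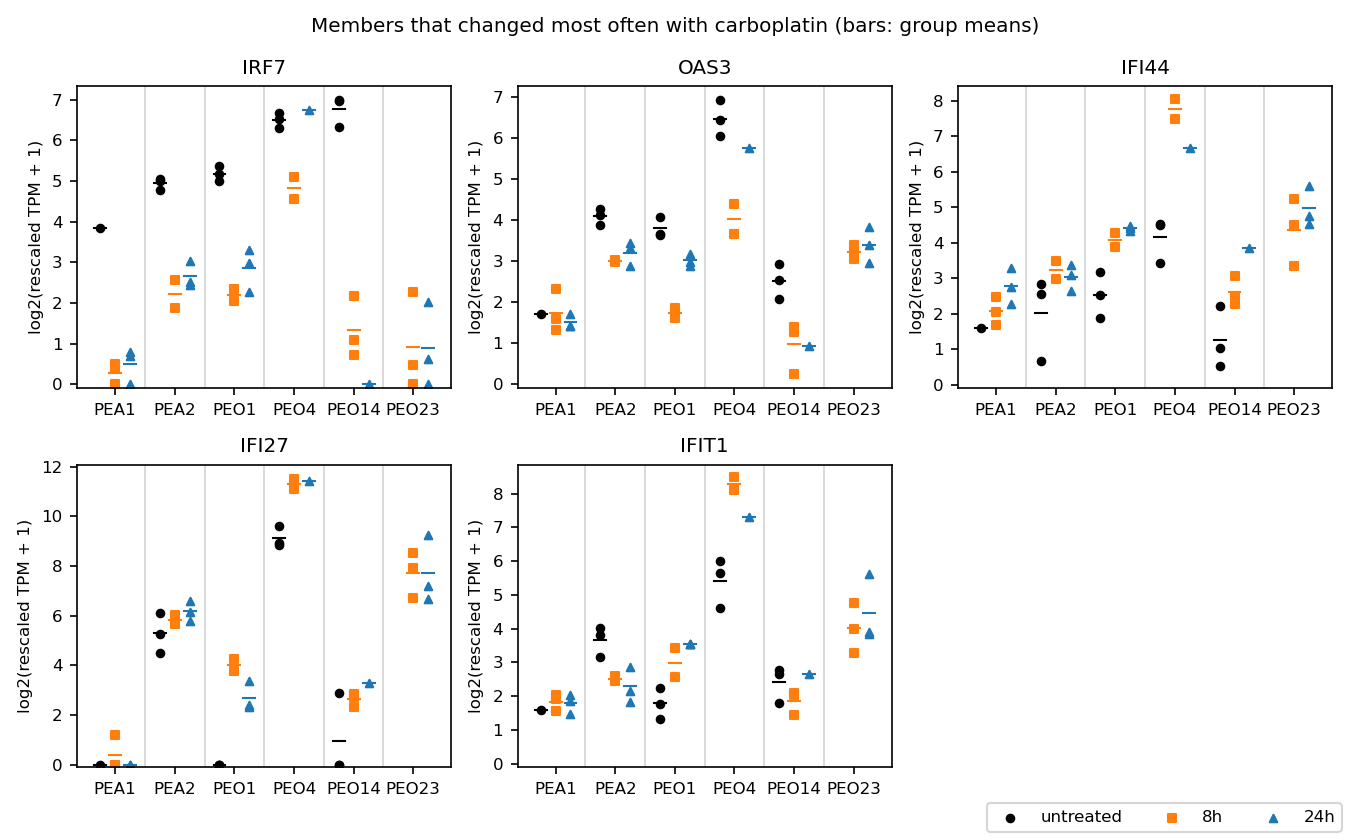
Level of 5 of the members called most often with carboplatin, as log2(rescaled TPM + 1) for each library by line, with circles for untreated, squares for 8 h, triangles for 24 h and bars for group means. IRF7 lies lower in treated than in untreated libraries of every line that has both, except PEO4 at 24 h, and IFI44 lies higher in treated PEO1, PEO4 and PEO14.

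Between 8 h and 24 h few members differed. IFIT2 rose in PEO1 from 4.35 and 10.7 to 53.9, 43.2 and 53.4 (2.69, SE 0.44, adjusted p = 0.00272), where 0.217% of all genes were called. In PEO4 OAS3 (1.73, SE 0.47, adjusted p = 0.0169) and TRIM22 (2.03, SE 0.54, adjusted p = 0.0154) were higher in the only 24 h library used, where 14.1% of all genes were called. A replicate block was also run that ties same-numbered untreated, 8 h and 24 h libraries of a line. With it, 5 members were called in PEO4 and 1 in PEO23 between 8 h and 24 h, and 6 in PEA2 from untreated to 8 h. limma called 0 members in PEA1, PEA2, PEO14 and PEO23 (0.0278%, 0.0%, 2.54% and 0.394% of all genes), of which 2, 0, 2 and 5 had an unadjusted p under 0.05. The change of the resistant line minus that of the sensitive line was called for 1 member from untreated to 8 h in PEO4 against PEO1, MX2 (-1.59, SE 0.36, adjusted p = 0.0123, 2.38% of all genes called), in which PEO1 was listed at 0 throughout. From 8 h to 24 h it was called for 1, IFIT2 (-3.11, SE 0.74, adjusted p = 0.0368, 0.822% of all genes). In the other 3 contrasts of this kind 0 members were called by limma, PEA2 against PEA1 at 8 h (0.339% of all genes) and from 8 h to 24 h (0.00555%) and PEO23 against PEO14 from 8 h to 24 h (0.139%), and 1, 0 and 1 had an unadjusted p under 0.05.

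Upstream of the members, the table held 21 interferon genes, of which 10 were listed at 0 in all 42 libraries and IFNB1 in 36. IFNK was listed at 0 in 18 of 42 and reached 32.7. With carboplatin 2 of 7 ligands tested were lower in PEA2 and 1 in PEO1 at each time. At 8 h 4 were lower in PEO14 and 0 in PEO4. The shares of all genes called lower were 10.8% and 12.5% in PEA2, 24.5% and 22.9% in PEO1, 21.2% in PEO14 and 32.0% in PEO4. IFNL1, a type III interferon, was the ligand called between lines. It was listed at 0 in 34 of 42 libraries and stood at 2.77, 31.9 and 4.76 in untreated PEO4, 3.66 and 5.61 at 8 h and 11.6 at 24 h, and in PEO1 at 0 except for 0.928 and 3.30 at 24 h. The PEO4 call passed at all 3 times (adjusted p = 1.94e-06, 0.0021 and 0.00287), and no other line had IFNL1 above 0. Of 9 receptors and kinases 1, 2 and 2 were higher and 1, 1 and 2 lower in PEA2, 0 higher and 2, 1 and 1 lower in PEO4, and 1 and 0 higher and 1 and 0 lower in PEO23. The shares of all genes called higher and lower were 6.32% to 10.2% and 5.25% to 8.54% for PEA2, 4.67% to 15.4% and 5.23% to 13% for PEO4, and 2.49% to 6.83% and 2.68% to 8.01% in PEO23, so that 1 or 2 of 9 genes cannot be read as an excess. IFNGR1, a chain of the interferon gamma receptor, was higher at 8 h in PEA2, with 62.1 and 117 against 24.8, 29.3 and 25.4 in PEA1 (1.66, SE 0.45, adjusted p = 0.00894), and in PEO23, with 50.1, 51.4 and 60.5 against 20.9, 20.3 and 11.7 in PEO14 (1.60, SE 0.40, adjusted p = 0.00599), without overlap. In PEO4 it was lower without drug (-1.45, SE 0.40, adjusted p = 0.00678). JAK1, a kinase shared by the receptors, was lower at 8 h in PEA2 (-1.90, SE 0.44, adjusted p = 0.00207) and PEO4 (-1.50, SE 0.48, adjusted p = 0.0438). SOCS3, a feedback inhibitor, was lower at 8 h in PEO4 (-2.17, SE 0.49, adjusted p = 0.00314) and PEO23 (-1.72, SE 0.40, adjusted p = 0.0033).

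Of 37 other interferon-induced genes tested, a list of genes outside the 41, 4, 7 and 6 were higher and 1, 2 and 3 lower in PEA2, 11, 7 and 8 higher and 4, 0 and 0 lower in PEO4, and 9 and 5 higher and 1 and 1 lower in PEO23. The median of the 37 was 0.36, 0.31 and 0.34 for PEA2, 0.26, 0.42 and 0.18 for PEO4, and 0.44 and 0.55 for PEO23, where the median of all genes was 0. The shares of all genes called higher there were 6.32%, 8.98% and 10.2%, then 15.4%, 4.67% and 11.9%, then 6.83% and 2.49%, and the 4 of 37 in untreated PEA2 lie close to the share of all genes. UBE2L6, the ISG15-conjugating enzyme, was the only gene of these lists called higher in all 3 pairs at 8 h, with 30.9, 16.6 and 24.3 against 40.6 and 58.0 in PEA2 (1.03, SE 0.36, adjusted p = 0.0466), 91.9 and 91.5 against 287 and 266 in PEO4 (1.58, SE 0.39, adjusted p = 0.00719), and 8.86, 5.46 and 9.65 against 34.6, 24.3 and 58.1 in PEO23 (2.10, SE 0.32, adjusted p = 2.06e-05). Its groups did not overlap in any pair. Other genes of the lists went opposite ways between pairs at 8 h. LAP3 stood at 33.3 and 42.1 in PEA2 against 81.7, 109 and 84.2 in PEA1. In PEO4 it stood at 193 and 119 against 62.9 and 61.5 in PEO1. IFNLR1, of the receptor list, stood at 9.08 and 4.52 in PEA2 against 1.02, 0.599 and 1.09 in PEA1. In PEO23 it stood at 3.53, 2.10 and 4.03 against 7.63, 9.01 and 19.2 in PEO14.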

How the data were processed

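Gene-level TPM values for 25435 genes in 54 libraries were used as deposited by the authors. Each library summed to the same total, so its depth is unknown and no counting error can be given. The table's name points to RSEM. The submitters' processing notes list bcl2fastq 2.18 and build hg19. The sources used here give no aligner, annotation or strand setting. Antisense and near-identical genes are therefore uncertain. An exact 0 can be a failed estimate, so genes are said to be listed at 0. The protocol gives 80 µM carboplatin (the series text gives mM) and libraries of 200 ng RNA with 75-base read pairs.

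The 42 libraries with at least 12000 genes above 0 were rescaled by the median ratio over 8285 genes, taken as log2(value + 1) and fitted in limma 3.58.1 (R 4.3.3) with a mean-variance trend over 17 groups. Tests covered the 18011 genes that reached TPM 1 in 3 or more of these libraries, with Benjamini-Hochberg adjustment. Tables and plots used Python 3.11.15, pandas 2.3.3, numpy 2.4.6 and matplotlib 3.10.9. The fit was tested on simulated data for PEO4 minus PEO1 at 8 h. It recovered 64% of genes given a log2 change of 2 and 88% of those given 3, with 11 false calls among 16522 genes. A gene not called is therefore not shown to be unchanged.

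The members, the lists and the limit of 12000 genes were chosen with earlier results of these data known. Values are given in full for the 5 members with the largest called difference in each resistant minus sensitive comparison, for members called in all 3 pairs at 8 h, and for the 5 called most often with treatment (ties by the larger median change). The rule also names pathway genes called in at least 2 pairs at 8 h, of which some are given. Same-numbered 8 h and 24 h cultures of a line shared their passage in 18 of 18 cases per the labels, and their deviations from group means correlated at -0.247 to 0.411 (10 pairs, 2 over 0.1). Same-numbered libraries of the lines of a pair at one time correlated at -0.0899 to 0.265 (13 pairs, 7 over 0.1). In groups of 2 libraries deviations mirror each other, so PEO1 and PEO4 at 8 h gave 0.235 for both numbers. The main fit did not pair same-numbered libraries, and only the replicate block took the numbers into account. Alternatives were all 54 libraries, with and without quality weights, no rescaling, a pseudocount of 0.1, no filter, only the compared groups, a replicate block and leaving out each library. P-values measure the spread between cultures of a line. One gene of these lists is not reported here.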

Additional observations from a re-analysis of the deposited data

Results flagged for a closer look

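Effects that differed between pairs or lines by a test of the difference itself are listed here as values. From untreated to 8 h, 1 member changed differently in PEO4 than in PEO1, MX2 (-1.59), and from 8 h to 24 h 1 did, IFIT2 (-3.11). The shares of all genes called there were 2.38% and 0.822%, so 1 of 41 members cannot be read as an excess.

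The difference between PEO4 and PEO1 at 8 h departed from that between PEA2 and PEA1 for 15 members, with the largest values for BST2 (6.79), IFITM2 (6.21), IFIT1 (4.60) and IFI44L (4.03). The difference between PEO23 and PEO14 departed from that between PEA2 and PEA1 for 10 members, with BST2 at 5.36, IFITM1 at -4.49, MX2 at -4.46 and IFITM3 at -2.70. Between the PEO4 and PEO23 pairs 16 members departed, with IFITM1 at 5.98, IFITM2 at 5.65, IRF9 at 3.49 and MX1 at 3.16. Of all genes tested, 15.7%, 13.9% and 9.76% were called in these contrasts, in the same order. At 8 h IFITM1 was listed at 0 in PEA1, IFITM2 in PEO1 and MX2 in both, so sizes that involve those groups depend on the added 1.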

How the results depend on the processing

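Of 88 values named, 31 passed under every alternative run, and with all 54 libraries 34 kept their side of the threshold and 54 did not pass. Leaving out 1 library kept 350 of 415 values on their side. No rescaling reversed 1 value, IFIT1 in PEO1 at 8 h (-0.17, adjusted p = 0.838). The causes were not tested, except that fewer libraries or groups leave fewer degrees of freedom. TPM keeps no depth, so precision rests on the spread between libraries alone.

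Counts between the lines of a pair are of members called higher, and all others are of members called in either direction. With all 54 libraries they were 3, 2 and 3 in PEA2 minus PEA1, 13, 12 and 13 in PEO4 minus PEO1, 2 in PEO23 minus PEO14 at 8 h, 0 and 0 in treated PEA2, 1 and 0 in PEO1, 2 and 2 in PEO4 and 1 and 1 in PEO14 against untreated, 0 and 0 in PEO1 and PEO4 from 8 h to 24 h, 0 and 0 in the 2 differences of change and 2, 1 and 1 in the differences between pairs. Quality weights gave 22 and 29 in PEA2 at 8 h and 24 h, 14 in PEO4 at 24 h and 1 in PEO23 at 24 h against their partners, 9 in PEA2 at 8 h, 5 in PEO1 at 8 h, 4 in PEO4 and 1 in PEO14 at 24 h against untreated, 1, 3 and 4 in PEA1, PEO1 and PEO4 from 8 h to 24 h, and 0 and 10 in the differences of change. No rescaling gave 20 in PEO4 at 8 h, 8 (beside 4 lower) and 2 in PEO23 against their partners, 6, 15 and 2 in PEA2 at 8 h, PEO1 at 8 h and PEO4 at 24 h against untreated, 4 and 7 in PEO1 and PEO4 from 8 h to 24 h, 2 and 0 in the differences of change and 9 for the PEO4 pair minus the PEA pair.

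Fits of the compared groups only gave 21 and 13 in PEO4 untreated and at 8 h and 2 in PEO23 at 24 h against their partners, 0, 5 and 0 in PEA1 at 24 h, PEA2 at 8 h and PEO4 at 24 h against untreated, 0 and 0 in PEO1 and PEO4 from 8 h to 24 h, 0 and 0 in the differences of change and 10 for the PEO4 pair minus the PEO23 pair. A pseudocount of 0.1 gave 2 and 3 in PEA1, 1 in PEA2 at 8 h, 4 in PEO4 at 24 h, 1 in PEO4 from 8 h to 24 h and 0 and 0 in the differences of change. No filter gave 1 in PEO23 from 8 h to 24 h. A replicate block tied same-numbered untreated, 8 h and 24 h libraries of a line in comparisons within a line. In comparisons between lines it tied same-numbered libraries of all lines at a time. It gave 6 in PEA2 at 8 h, 5 in PEO4 and 1 in PEO23 from 8 h to 24 h, and it changed no named call (88 of 88). Other counts moved by less than 1.5 times. Leaving out 1 library gave 8 to 13 in PEA2 minus PEA1 at 8 h, 1 to 5 and 1 to 3 in treated PEA2, 5 to 10 in PEO1 and 3 to 5 in PEO14 at 8 h, 1 to 2, 0 to 5 and 0 to 1 in PEO1, PEO4 and PEO23 from 8 h to 24 h, 1 to 3 and 0 to 1 in the differences of change and 10 to 16 for the PEO4 pair minus the PEO23 pair.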

Other observations

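The 3 untreated PEO23 libraries were set aside, and their deposited TPM values are given here without a comparison. Replicate 1 listed 31 of the 41 members above 0, with BST2 at 782, IFITM3 at 666, IFITM1 at 290, IFI27 at 165, MX1 at 73.6, IRF7 at 56.8, OAS3 at 44.9, SAMD9 at 37.2 and XAF1 at 14.1. Replicate 2 listed 3 members above 0. Replicate 3 listed 5, which were ISG15 at 257, MX1 at 76.4, MX2 at 50.1, PARP9 at 48.5 and DDX58 at 30.8. With all 54 libraries in the model, PEO23 minus PEO14 without drug gave 1 member higher (SAMD9L, 1.96) and 5 lower (IFITM3, IRF7, IFITM1, STAT2 and IFITM2, at -6.19, -4.94, -4.38, -3.61 and -2.95), while the median of all genes stood at -1.46.

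The library labelled PEA1 untreated replicate 3, also set aside, listed IFITM1 at 218 TPM, whereas the 7 PEA1 libraries used listed it at 0.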
